A study of Mus musculus with 6 samples.

Results

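A list of 35 genes of protein folding, stress sensing and protein disposal in the endoplasmic reticulum (ER) was followed across 6 mouse RNA libraries. The listed genes were grouped by role into Hsp70 and Hsp90 chaperones with their cofactors, J-domain cochaperones, lectin chaperones, protein disulfide isomerases, sensors of the unfolded protein response, translocon subunits and degradation factors. All 35 were present among the 35856 genes with a quantified transcript, and 34 of them were among the 15933 genes with enough counts to be tested.

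Total RNA was profiled after removal of ribosomal RNA, with 1 library for each of 3 labelled cell types in each of 2 labelled arms. All cells carried floxed Mdm2 alleles (Mdm2 fl/fl) and lacked p53 (p53-/-), so the controls share the loss of p53. The lymphoma and the sarcoma were tumours that had arisen in such mice and were kept in culture for a short time, and the fibroblasts were grown from ear punches of adult mice. Cells had received a retrovirus for GFP with CreERT2, a Cre recombinase that 4-hydroxytamoxifen (4OHT) switches on, or for GFP alone, and the labels do not say which vector each library's cells carried. The 4OHT arm, labelled as Mdm2 deleted, received 4OHT at a stated 1 mM, and the EtOH arm received ethanol vehicle, for 6 h in lymphoma and 48 h in sarcoma and fibroblasts. The labels name no GFP-only culture exposed to 4OHT, so Mdm2 deletion and exposure to 4OHT cannot be told apart. How many animals each culture came from is not stated in the labels.

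The values did not bear out the labels on several points, so each library is called by its label only. Mdm2, the ubiquitin ligase gene targeted by the design, stood at 30.5, 31.1 and 31.1 CPM (counts scaled to library size with TMM factors) in the 4OHT libraries labelled fibroblast, lymphoma and sarcoma, and at 28.4, 28.0 and 28.5 CPM in the EtOH libraries (edgeR adjusted p = 0.0539). These are sums over the whole gene, and the files do not show which exons the reads came from. Trp53 stood between 22.3 and 28.5 CPM over the 6 libraries (edgeR adjusted p = 0.414), also as a sum over the whole gene. Neither sum tells whether the gene was intact. Of 11 T cell markers 1, Lck, reached 1 CPM in any library, and Cd3d, Cd3e, Cd247 and Cd2 were at 0 in every library, those labelled lymphoma included. Of 9 fibroblast markers 8 reached 1 CPM, and their summed level was 10230 to 10480 CPM in the 4OHT arm against 17420 to 18190 CPM in the EtOH arm. Because every shared test below takes the 3 labelled cell types as replicates, its p-values reflect how these libraries vary, which may be technical.

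The ER folds and modifies proteins that are secreted or placed in membranes. When unfolded proteins build up there, the sensors IRE1, PERK and ATF6 start the unfolded protein response, which slows translation and raises the transcription of chaperones and of factors that send misfolded proteins back to the cytosol for destruction by the proteasome. Fibroblasts, which secrete collagen, depend on this machinery, and BiP, the product of Hspa5, is the usual marker of its activity.

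Across the 3 labelled pairs, 17 of the 34 tested genes rose in the 4OHT libraries, 2 fell and 15 did not pass the test. Hspa5, its nucleotide exchange factor Hyou1, the cochaperone Dnajb11, the sensor genes Ern1 and Atf6 and the ubiquitin ligase gene Syvn1 rose by 0.39 to 0.65 on the log2 scale, while the disulfide isomerase gene P4hb and the transcription factor gene Xbp1 were lower. The changes were small: the 17 risen genes lay between 0.13 and 0.65 on the log2 scale, 1 of them reached 1.5-fold and 0 reached 2-fold, whereas 984 genes in the whole table were called with at least a 2-fold change. All 17 were higher in 4OHT in all 3 pairs on TMM-scaled CPM, though Calr in the pair labelled sarcoma had a log2 ratio of 0.004, which was -0.011 with DESeq2 size factors and -0.012 on deposited TPM.

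These counts stand beside a broad change in the transcriptome, in which 49.6% of all tested genes were called by edgeR's quasi-likelihood test at an adjusted p under 0.05. Of all genes 25.0% rose and 24.6% fell, against 50.0% and 5.88% of the ER genes. The median log2 fold change of the ER genes was 0.13, compared with 0.015 for all tested genes. On TMM-scaled CPM, the 3 4OHT libraries all lay above the 3 EtOH libraries in 18 of the 34 genes, an arrangement found in 27.7% of all genes. In 5 they all lay below, as in 27.8% of all genes. In the table as a whole, 50.4% of called genes were higher in the count test and 62.1% in limma on log2(TPM + 1). TPM is the transcript abundance scaled to transcript length and library. For the ER genes the shares were 89.5% in the count test and 100% in limma, the latter over 7 calls. These fits differ in test, gene filter and scaling as well as in units, and the part of each was not tested. In limma 10.7% of all genes were called higher and 6.49% lower by adjusted p, and of the 34 ER genes 7 were called higher and none lower. At an unadjusted p under 0.05 in limma, 14 ER genes were higher and 0 lower. The share of all genes at that unadjusted threshold is not given here. These unadjusted counts therefore have no background to be set beside, and nothing is drawn from them.

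**Figure D1:**
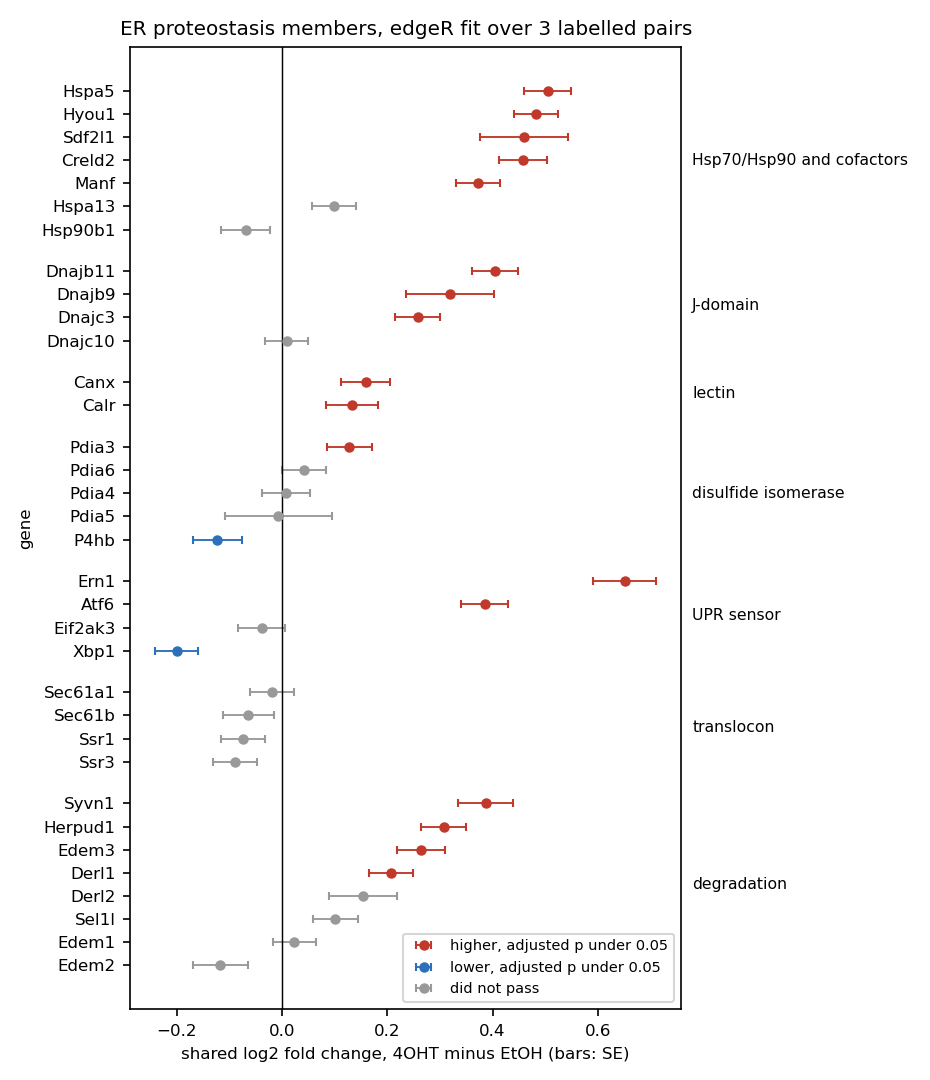
Shared log2 fold change (4OHT minus EtOH, horizontal axis) of the 34 tested ER genes, grouped by role, with bars for the SE of the edgeR fit over 3 labelled pairs. Red points passed the test as higher and blue points as lower, and the Hsp70 and Hsp90 group holds 5 red points while the translocon group holds none.

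Several promoters of these genes carry the ER stress response element (ERSE), the sequence to which ATF6 and XBP1 are known to bind together with NF-Y. The element is spelled here as CCAAT, then 9 bases, then CCACG, and it was sought on both strands in the 250 bases before the RefSeq start of each gene (RefSeq, GRCm38.p6), where 29 of the 35 genes had a sequence. It was found in 9 of these 29 genes, and in 35 of 27025 genes with a promoter sequence (0.13%), or 37 of 32851 promoters (0.113%). Among the 13 risen genes with a promoter sequence 6 held the element, and among the 16 others 3 did. Matches are shown with 5 bases on each side, in the gene's own direction, and capitals mark the element, which reads as CGTGG, 9 bases, ATTGG where it lies on the opposite strand. The first 6 belong to genes that rose, and they are shown so that they can be set beside those of Hsp90b1 and Pdia6, which did not pass, and of Derl3, which was nearly undetected.
Hspa5, chr2:34772020-34772048, plus strand: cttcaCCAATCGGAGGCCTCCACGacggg
Creld2, chr15:88819515-88819543, plus strand: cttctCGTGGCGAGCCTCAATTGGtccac
Dnajc3, chr14:118937822-118937850, plus strand: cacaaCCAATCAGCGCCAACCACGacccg
Calr, chr8:84847070-84847098, minus strand: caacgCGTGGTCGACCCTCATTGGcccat
Canx, chr11:50325795-50325823, minus strand: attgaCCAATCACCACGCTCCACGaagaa
Syvn1, chr19:6046527-6046555, plus strand: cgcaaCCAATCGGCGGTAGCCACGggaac
Hsp90b1, chr10:86705528-86705556, minus strand: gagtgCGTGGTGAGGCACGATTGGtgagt
Hsp90b1, chr10:86705633-86705661, minus strand: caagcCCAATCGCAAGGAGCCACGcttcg
Pdia6, chr12:17266486-17266514, plus strand: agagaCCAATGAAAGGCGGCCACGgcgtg
Derl3, chr10:75893237-75893265, plus strand: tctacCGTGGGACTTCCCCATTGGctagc
The match of Hspa5 lies before the RefSeq start but inside the gene as GENCODE M21 draws it, since a longer transcript begins at base 34771970 of chromosome 2.

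Herpud1 was the 1 gene of the list with the related ERSE-II, spelled ATTGG, 1 base, CCACG. It was present in 10 of 27025 genes with a promoter sequence (0.037%), or 10 of 32851 promoters (0.0304%). The match is shown because it is the shorter form of the same element, in a degradation gene that rose.
Herpud1, chr8:94386372-94386392, plus strand: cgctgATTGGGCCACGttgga
The same promoter held the letters TGATGNAA, a core of elements bound by ATF4 and CHOP. They occurred in 3.45% of all promoters, 3.91% of all genes with a promoter sequence, and in no other gene of the list. The XBP1 element TGACGTGG was in 0 of the 29 genes, in 0.603% of all genes with a promoter sequence and in 0.563% of all promoters. A match says only that these letters lie in the window.

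TPM is scaled by transcript length, so it can be compared between genes only where very short targets do not dominate the sum. In Hspa5 a target of 129 bases, annotated as subject to nonsense-mediated decay, held 73.3% to 76.2% of the gene's TPM with 2.78% to 3.07% of its counts. Targets under 300 bases also held most of the summed TPM of Ern1 (53.7%) and Sec61b (56.8%). Levels are given on protein-coding transcripts, a choice made after seeing the data that removes the short target of Hspa5. The short targets of Ern1 and Sec61b are themselves annotated as protein-coding, so the levels of these genes still hold them. On coding transcripts P4hb stood at 485 ± 29.3 TPM (SD, n = 3 libraries) in the EtOH arm and Calr at 301 ± 24.8 TPM. Hspa5 stood at 291 ± 10.7 TPM and Hsp90b1 at 262 ± 14.0 TPM. Calr and Hspa5 differed by less than the spread between libraries, and Edem3 stood far lower, at 5.23 ± 0.0885 TPM. Coding transcripts of Hspa5 reached 410, 451 and 406 TPM in the 4OHT libraries labelled fibroblast, lymphoma and sarcoma and 296, 279 and 299 TPM in the EtOH libraries, with no overlap between arms. Its share of the summed coding TPM of the 35 genes was 9.03% to 12.1%, whereas with the short target it was 27.0% to 36.3%. The 35 genes together took 0.309% to 0.330% of a library's TPM in the EtOH arm and 0.335% to 0.374% in the 4OHT arm on coding transcripts, with 0.330% and 0.335% in the pair labelled sarcoma. With the short target these ranges were 0.388% to 0.422% and 0.452% to 0.513%. In bulk RNA such as this, fewer cells of a type and less RNA per cell cannot be told apart. The 3 libraries of an arm were close to each other, with a median coefficient of variation of 1.92% in the 4OHT arm and 3.59% in the EtOH arm over the 34 tested genes, on the CPM scale.

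Among the 7 Hsp70 and Hsp90 chaperones and cofactors, 5 rose (Hspa5, Hyou1, Sdf2l1, Creld2 and Manf) and none fell. The median log2 fold change was 0.46. Over all tested genes 25.0% rose and 24.6% fell, and this background holds for each role below. Every role has few genes. Hspa5 (chr2:34771970-34777547, plus strand, GRCm38) encodes BiP, the ER Hsp70 that binds unfolded chains and holds the stress sensors inactive. It stood at 1800, 1787 and 1776 CPM in the 4OHT libraries labelled fibroblast, lymphoma and sarcoma, and at 1271, 1213 and 1297 CPM in the matching EtOH libraries. The lowest 4OHT library was well above the highest EtOH library, and the shared log2 fold change was 0.50 ± 0.045 (SE; edgeR adjusted p = 3.1e-06).

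Hyou1, which exchanges nucleotide on BiP, had 282, 281 and 276 CPM in 4OHT and 195, 205 and 199 CPM in EtOH. Its log2 fold change of 0.48 ± 0.042 was close to that of its partner (edgeR adjusted p = 2.56e-06). Sdf2l1, a stabiliser of the BiP cycle with its J-domain partners, varied more: its CPM ratio in log2 was 0.76 in the pair labelled fibroblast and 0.31 and 0.32 in the other pairs. Creld2, a secreted ER stress protein with a disulfide isomerase-like motif, reached 97.7, 90.8 and 93.1 CPM in 4OHT against 66.0, 68.3 and 70.7 CPM in EtOH, with no overlap between arms (log2 fold change 0.46 ± 0.046). Manf, a neurotrophic factor retained in the ER that binds BiP, changed least among the risen members of this group. It stood at 114, 112 and 110 CPM in 4OHT and at 86.4, 83.4 and 89.4 CPM in EtOH, again without overlap (log2 fold change 0.37 ± 0.042, edgeR adjusted p = 2.42e-05).

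The other 2 chaperones did not pass. Hsp90b1 encodes GRP94, the Hsp90 of the ER, and stood at 1289, 1299 and 1335 CPM in 4OHT and at 1441, 1316 and 1359 CPM in EtOH. The arms overlapped and its log2 fold change was -0.07 ± 0.047 (edgeR adjusted p = 0.250). Its promoter holds 2 of the ERSE matches shown above. Hspa13, a microsomal Hsp70-like ATPase, had a log2 fold change of 0.10 ± 0.042 (edgeR adjusted p = 0.0693), and its 4OHT libraries all lay above its EtOH libraries.

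**Figure D2:**
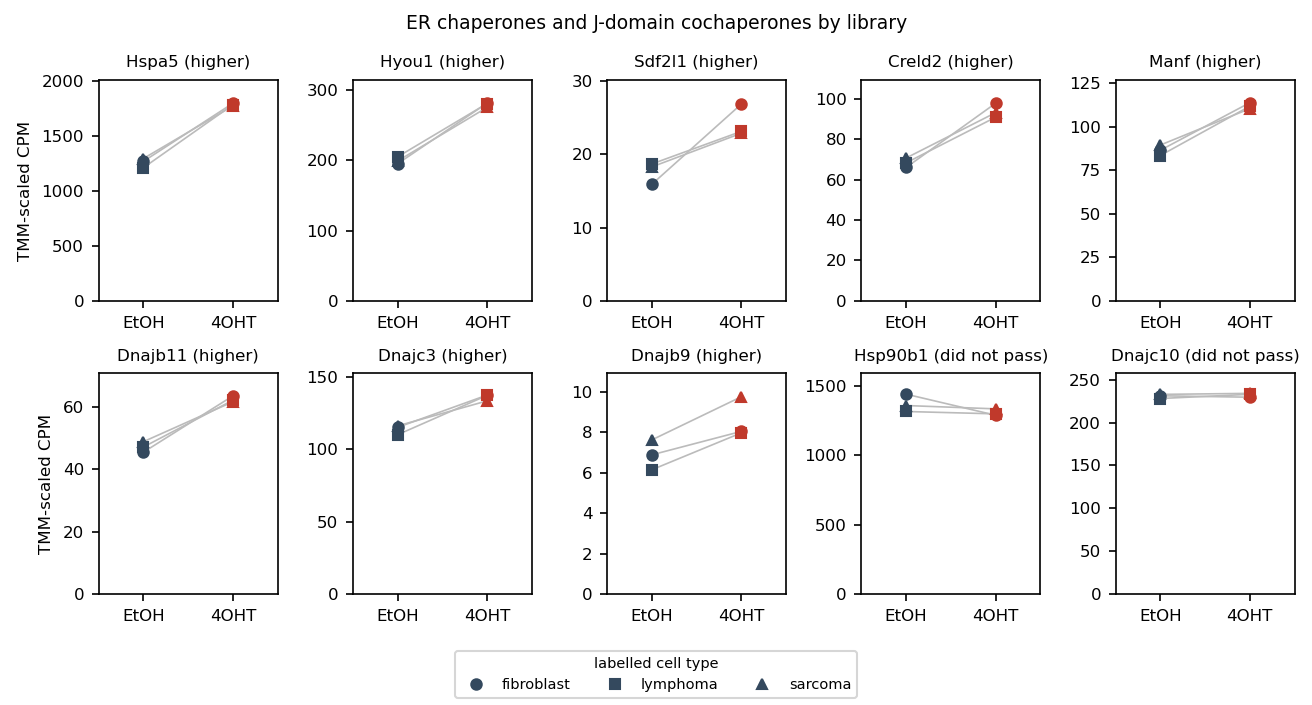
TMM-scaled CPM (vertical axis, from 0) of 10 chaperone and J-domain genes in each library, with EtOH and 4OHT libraries of a label joined by a line and the symbol giving the labelled cell type. Hspa5 moved from between 1213 and 1297 to between 1776 and 1800, while the arms of Hsp90b1 and Dnajc10 overlapped.

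J-domain proteins drive the ATPase of BiP and choose its clients. Of the 4 measured, 3 rose, beside 25.0% of all tested genes, and the median log2 fold change was 0.29. Dnajb11, a cochaperone for unfolded clients in the ER lumen, stood at 63.6, 62.2 and 61.7 CPM in 4OHT and at 45.5, 47.2 and 48.9 CPM in EtOH. Its arms were far apart, with a log2 fold change of 0.40 ± 0.044 (edgeR adjusted p = 1.79e-05). Dnajc3, known as p58IPK for its inhibition of the kinase PERK, had 138, 137 and 134 CPM in 4OHT and 115, 110 and 116 CPM in EtOH (log2 fold change 0.26 ± 0.043, edgeR adjusted p = 0.000408).

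Dnajb9, or ERdj4, which helps BiP to silence IRE1, was the least abundant of the 4 and the least precise. Its levels were 8.04, 7.97 and 9.75 CPM in 4OHT and 6.88, 6.14 and 7.62 CPM in EtOH, and the arms did not overlap. The log2 fold change of 0.32 ± 0.084 passed with edgeR (adjusted p = 0.00788) but not with DESeq2 (adjusted p = 0.195) nor in edgeR without the pair labelled lymphoma (adjusted p = 0.0528). Dnajc10, a J-domain protein that also reduces disulfides, had a log2 fold change of 0.01 ± 0.041 and overlapping arms, and its sign turned in several alternatives.

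The lectin chaperones calnexin and calreticulin hold glycoproteins in the ER until they are folded. Both rose, by less than most of the chaperones above, with a median log2 fold change of 0.15. Canx stood at 908, 906 and 892 CPM in 4OHT and at 819, 770 and 835 CPM in EtOH (log2 fold change 0.16 ± 0.046, edgeR adjusted p = 0.0126). Calr stood at 832, 829 and 833 CPM in 4OHT and at 734, 714 and 831 CPM in EtOH (log2 fold change 0.13 ± 0.050, edgeR adjusted p = 0.0464). The EtOH library labelled sarcoma was as high in Calr as the 4OHT libraries, so the arms overlapped. Calr no longer passed edgeR without the pair labelled fibroblast (adjusted p = 0.224), without the pair labelled lymphoma (adjusted p = 0.338) or without the pairing (adjusted p = 0.0759), and Canx no longer passed without the pair labelled lymphoma (edgeR adjusted p = 0.178).

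Protein disulfide isomerases make and reshuffle disulfide bonds. Of the 5 measured members Pdia3 rose and P4hb fell, 3 did not pass, and the median log2 fold change was 0.01. The shares of 20.0% risen and 20.0% fallen lie near the 25.0% and 24.6% over all tested genes. Pdia3, or ERp57, which works with calnexin and calreticulin, had 788, 780 and 665 CPM in 4OHT and 726, 693 and 623 CPM in EtOH (log2 fold change 0.13 ± 0.043, edgeR adjusted p = 0.0280). Each pair moved up, but both libraries labelled sarcoma were lower than the rest, so the arms overlapped. The call ended without the pair labelled fibroblast (edgeR adjusted p = 0.111), without that labelled lymphoma (0.229) and without the pairing (0.170).

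P4hb encodes the archetypal disulfide isomerase, which is also the beta subunit of collagen prolyl 4-hydroxylase. It stood at 1084, 1072 and 1095 CPM in 4OHT and at 1167, 1117 and 1258 CPM in EtOH, so all 4OHT libraries were the lower ones (log2 fold change -0.12 ± 0.046, edgeR adjusted p = 0.0444). It no longer passed edgeR without the pair labelled lymphoma (adjusted p = 0.0984), without that labelled sarcoma (0.128) or without the pairing (0.0518). Pdia4, Pdia5 and Pdia6 had log2 fold changes of 0.01 ± 0.046, -0.01 ± 0.102 and 0.04 ± 0.042, and the arms overlapped in each.

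Of the 3 sensor genes, Ern1 and Atf6 rose and Eif2ak3 did not pass, while Xbp1, the transcription factor gene whose RNA is spliced by IRE1, fell. Ern1 (chr11:106394650-106487852, minus strand), which encodes IRE1 alpha, had the largest fold change of the 34 tested ER genes in the count test. Its levels were 27.6, 29.7 and 30.6 CPM in 4OHT and 19.0, 18.9 and 18.1 CPM in EtOH, a 1.57-fold difference (log2 fold change 0.65 ± 0.060, edgeR adjusted p = 4.19e-06). In limma on log2(TPM + 1) its log2 fold change was 0.45 and did not pass (adjusted p = 0.102), below the 0.57 of Hspa5. The Ern1 target under 300 bases held 53.7% of its TPM and 3.63% of its counts over the 6 libraries. The TPM of Hspa5 in that fit likewise held its target of 129 bases, with 73.3% to 76.2% of the gene's TPM. Atf6, the sensor that is cut in the Golgi to free a transcription factor, stood at 47.2, 48.7 and 47.3 CPM in 4OHT and at 34.90, 38.04 and 36.67 CPM in EtOH. Its arms did not overlap either (log2 fold change 0.39 ± 0.045, edgeR adjusted p = 2.79e-05).

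Eif2ak3 encodes PERK, the kinase that slows translation. It stood at 39.9, 41.3 and 39.9 CPM in 4OHT and at 40.3, 42.0 and 42.0 CPM in EtOH, with overlapping arms (log2 fold change -0.04 ± 0.044, edgeR adjusted p = 0.502). Xbp1 (chr11:5520659-5525893, plus strand) had 60.1, 57.1 and 59.4 CPM in 4OHT and 68.2, 64.6 and 70.0 CPM in EtOH. All 3 4OHT libraries were below all 3 EtOH libraries (log2 fold change -0.20 ± 0.041, edgeR adjusted p = 0.00163), and the call held without each pair in turn. The files give a count per transcript and no read positions, so the splicing of Xbp1 by IRE1 was not measured.

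**Figure D3:**
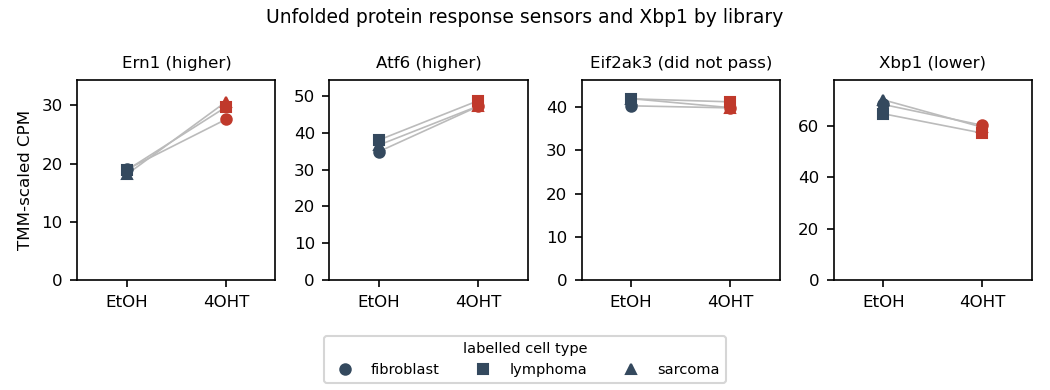
TMM-scaled CPM (vertical axis, from 0) of Ern1, Atf6, Eif2ak3 and Xbp1 in each library, with the 2 libraries of a label joined by a line. Ern1 and Atf6 were higher in every 4OHT library, Xbp1 was lower in every 4OHT library, and the arms of Eif2ak3 overlapped.

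The translocon carries nascent proteins into the ER. None of the 4 measured subunits passed the test: edgeR called 0, with 0 at an unadjusted p under 0.05, and DESeq2 and limma on TPM also called 0. Of all tested genes edgeR called 49.6%, and a count of 0 among so few genes says little. The log2 fold changes were -0.02 for Sec61a1, which forms the channel, -0.06 for Sec61b, its small subunit, and -0.07 and -0.09 for Ssr1 and Ssr3 of the translocon-associated complex, each with an SE of 0.042 to 0.048. On TMM-scaled CPM Ssr1 and Ssr3 were lower in all 3 4OHT libraries than in any EtOH library, and Sec61a1 and Sec61b overlapped. On coding TPM the arms of Ssr1 and Ssr3 overlapped too. They stood at 168 and 248 TPM in the 4OHT library labelled lymphoma and at 156 and 247 TPM in the EtOH library of that label. Without the pair labelled fibroblast Sec61b was called lower (log2 fold change -0.14, edgeR adjusted p = 0.0281), and without that labelled sarcoma its value was -0.007. The median of the group was -0.07, compared with 0.46 for the Hsp70 and Hsp90 group.

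In ER-associated degradation, 4 of 8 tested genes rose (Syvn1, Herpud1, Edem3 and Derl1), none fell and the median log2 fold change was 0.18. Over all tested genes 25.0% rose and 24.6% fell. Syvn1 encodes Hrd1, the membrane ubiquitin ligase at the centre of the pathway. It stood at 28.5, 29.8 and 31.1 CPM in 4OHT and at 22.3, 22.6 and 23.5 CPM in EtOH, with a wide gap between arms (log2 fold change 0.39 ± 0.052, edgeR adjusted p = 8.91e-05). Herpud1, a scaffold of the ligase complex, had 94.2, 88.3 and 88.4 CPM in 4OHT and 73.6, 70.4 and 74.8 CPM in EtOH (log2 fold change 0.31 ± 0.042). Edem3, a mannosidase that marks misfolded glycoproteins, rose by 0.26 ± 0.046 on the log2 scale. Derl1, a membrane protein of the exit route, showed the smallest rise, from 94.8, 95.2 and 94.8 CPM in EtOH to 114, 110 and 105 CPM in 4OHT (log2 fold change 0.21 ± 0.042, edgeR adjusted p = 0.00181).

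Sel1l, the adaptor of Hrd1, and Derl2, a relative of Derl1, did not pass, with log2 fold changes of 0.10 ± 0.043 (edgeR adjusted p = 0.0742) and 0.15 ± 0.064 (0.0662). Both had all 4OHT libraries above all EtOH libraries on TMM-scaled CPM. Edem1 and Edem2, relatives of Edem3, had log2 fold changes of 0.02 ± 0.041 and -0.12 ± 0.053 and did not pass. On TMM-scaled CPM Edem2 lay lower in all 4OHT libraries than in any EtOH library, but its log2 ratio in the pair labelled lymphoma was -0.001. In that pair Edem2 had 0.005 on coding transcripts and 0.136 on deposited TPM. With edgeR it passed as lower without the pair labelled fibroblast (-0.17, adjusted p = 0.0148), without that labelled lymphoma (-0.17, 0.0412) and with no filter on low counts (-0.14, 0.0234), and stood at -0.04 without that labelled sarcoma. Derl3, a relative of Derl1 known from secretory tissue, was not tested: it had 7 estimated counts over the 6 libraries, and 3 counts make 0.0797 to 0.113 CPM in a library, so its level was not measurable at this depth.

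Within the labelled pairs, where 1 library stands against 1 and no test was made, the median log2 ratio of the 34 genes was 0.14 in the pair labelled fibroblast, 0.19 in that labelled lymphoma and 0.09 in that labelled sarcoma. All tested genes had medians of 0.001, 0.004 and 0.014 in the same pairs. On TMM-scaled CPM, 20 of the 34 genes were higher in 4OHT in all 3 pairs, 7 were lower in all 3 and 7 were mixed. The share of all genes with the same sign in all 3 pairs was not computed. In 55.5% of all tested genes the arms did not overlap, and every such gene has the same sign in all 3 pairs. Of the 7 ER genes that were lower in all 3 pairs, Xbp1 stayed below 0 on deposited TPM in the pair labelled lymphoma (log2 ratio -0.062). There P4hb (0.079), Ssr1 (0.108), Ssr3 (0.005), Edem2 (0.136), Eif2ak3 (0.078) and Hsp90b1 (0.118) were above 0. Exposure had lasted 6 h in the pair labelled lymphoma and 48 h in the others, and exposure time and labelled cell type cannot be told apart. In the same order of labels, Ern1 had log2 ratios of 0.54, 0.65 and 0.76 and Hspa5 had 0.50, 0.56 and 0.45.

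**Figure D4:**
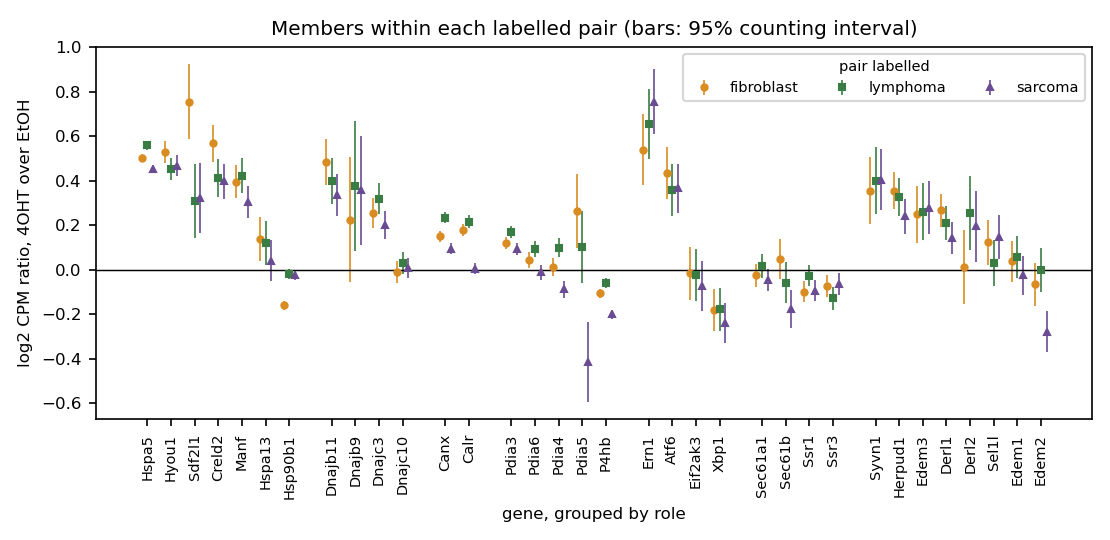
Log2 CPM ratio (4OHT over EtOH, vertical axis) of each of the 34 tested genes in the 3 labelled pairs, with 95% counting intervals as bars. Hspa5, Hyou1, Ern1, Atf6 and Syvn1 lie above 0 in each pair, and Pdia5 lies above 0 in the pair labelled fibroblast and below 0 in the pair labelled sarcoma.

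A wider list of 129 other genes of ER proteostasis and of related chaperones had 29 risen and 39 fallen members, with a median log2 fold change of -0.03. These shares of 22.5% and 30.2% lie near the 25.0% and 24.6% over all genes. Without the cytosolic heat shock and mitochondrial chaperones, 18.6% of the remaining 113 genes rose and 33.6% fell, with a median of -0.07. The 14 signalling partners of the unfolded protein response had 7 risen and 3 fallen members (50.0% and 21.4%). Their median log2 fold change was 0.15, near the 0.13 of the 34 tested ER genes. Ddit3, which encodes CHOP, stood at 42.5, 43.9 and 45.7 CPM in 4OHT and at 19.9, 17.9 and 19.4 CPM in EtOH, the largest change among these 129 genes (log2 fold change 1.21 ± 0.055, edgeR adjusted p = 9.06e-09). Trib3, a pseudokinase induced by CHOP, had 33.5, 36.0 and 28.6 CPM in 4OHT and 17.8, 18.5 and 17.2 CPM in EtOH (0.87 ± 0.061). Atf4, which acts downstream of PERK and of other kinases, rose by 0.41 ± 0.044 on the log2 scale. The ER stress transducer genes Creb3l1 and Creb3l2 fell by 0.76 and 0.39 on the log2 scale.

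The 29 other ER folding factors had 3 risen and 12 fallen members (10.3% and 41.4%, beside 25.0% and 24.6% of all tested genes). Their median log2 fold change was -0.10. Ero1l, the oxidase that recharges disulfide isomerases, rose from 80.0, 77.9 and 77.2 CPM in EtOH to 136, 138 and 136 CPM in 4OHT (log2 fold change 0.80 ± 0.041). Uggt1, the enzyme that returns unfolded glycoproteins to calnexin, rose from 267, 260 and 267 CPM to 425, 425 and 410 CPM (0.66 ± 0.042). The 3 KDEL receptors, which bring escaped ER chaperones such as BiP back from the Golgi, all fell: Kdelr1 by 0.58 ± 0.051, Kdelr3 by 0.57 ± 0.044 and Kdelr2 by 0.38 ± 0.043 on the log2 scale. They were singled out after their values had been seen.

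Of 15 genes of collagen folding and hydroxylation, 11 fell and 1 rose, with a median of -0.24. Of all tested genes 24.6% fell and 25.0% rose. P4ha3, an alpha subunit of the hydroxylase whose beta subunit is P4hb, went from 10.5, 11.0 and 11.6 CPM in EtOH to 4.99, 5.26 and 5.42 CPM in 4OHT (log2 fold change -1.08 ± 0.082). Plod2, a lysyl hydroxylase, went from 211, 198 and 206 CPM to 141, 139 and 137 CPM (-0.56 ± 0.043). The summed fibroblast markers, which include 3 collagen genes, were lower in the same libraries, and their part in these results was not tested.

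The 32 other genes of translocation, signal peptide cleavage and glycosylation had 3 risen and 8 fallen members, with a median of -0.06. The fallen share of 25.0% lies near the 24.6% over all tested genes, and 9.38% rose against 25.0%. Sec11c, a catalytic subunit of the signal peptidase, rose from 21.5, 19.1 and 21.1 CPM in EtOH to 29.3, 31.2 and 29.6 CPM in 4OHT (log2 fold change 0.55 ± 0.062). Ost4, a small subunit of the oligosaccharyltransferase, fell from 31.6, 26.7 and 28.4 CPM to 22.4, 22.4 and 24.2 CPM (-0.33 ± 0.063).

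In the 23 other ER degradation genes 7 rose and 4 fell. These shares of 30.4% and 17.4% lie near the 25.0% and 24.6% over all tested genes. Rnf139, an ER membrane ubiquitin ligase, rose from 60.6, 60.3 and 62.6 CPM in EtOH to 93.2, 93.4 and 91.2 CPM in 4OHT (log2 fold change 0.60 ± 0.041). Tmub1, a ubiquitin-like membrane protein, fell from 4.78, 5.13 and 5.95 CPM to 3.56, 4.10 and 3.83 CPM (-0.47 ± 0.112). The 16 cytosolic heat shock and mitochondrial chaperones had 8 risen members and 1 fallen (50.0% and 6.25%), with a median log2 fold change of 0.13. These values lie close to the 50.0%, 5.88% and 0.13 of the 34 tested ER genes, so such shares were not particular to the ER list. Hspa9, the mitochondrial Hsp70, rose from 757, 733 and 794 CPM in EtOH to 1093, 1072 and 1096 CPM in 4OHT (0.51 ± 0.044). Dnajb1, a cytosolic J-domain protein, rose from 40.1, 40.0 and 41.6 CPM to 57.5, 53.4 and 53.5 CPM (0.43 ± 0.046). Hspa1a and Hspa1b are near-identical copies, so their split of reads is uncertain.

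**Figure D5:**
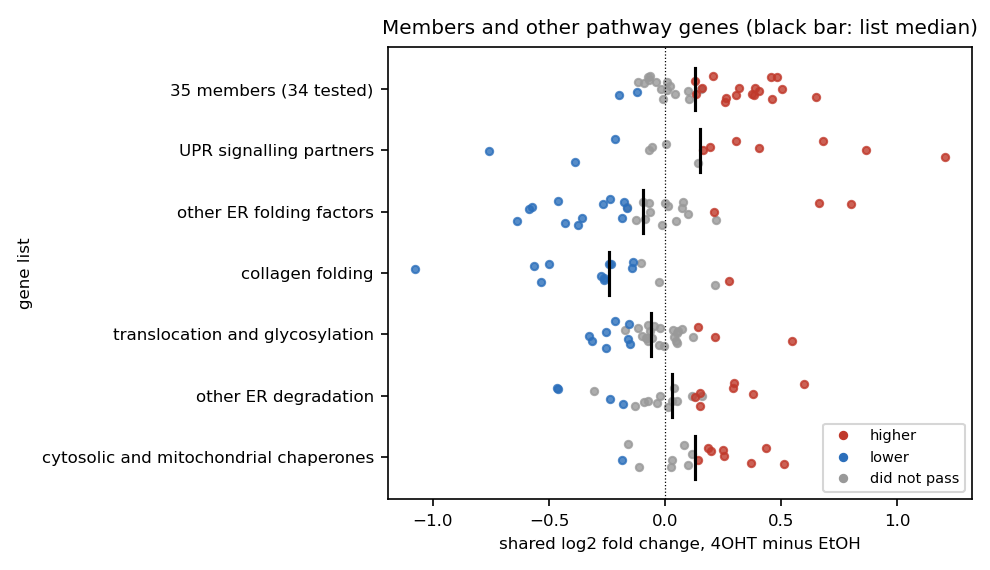
Shared log2 fold changes (4OHT minus EtOH, horizontal axis) of the 34 tested ER genes (top row) and of 6 lists of other genes, 1 point per gene, red for higher, blue for lower and grey for not passed, with a black bar at each median. The top row has its median at 0.13, the signalling partners at 0.15, the cytosolic and mitochondrial chaperones at 0.13 and the collagen list at -0.24.

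Markers of other cell types were low in all libraries, and most of their sums were higher in the 4OHT arm. Summed T cell markers lay at 3.72 to 4.30 CPM in 4OHT and 1.89 to 2.23 CPM in EtOH, other leukocyte markers at 8.19 to 10.3 and 4.76 to 5.34 CPM, and epithelial markers at 23.6 to 25.6 and 9.05 to 10.1 CPM, where Krt5 was at 0. Plasma cells are rich in ER chaperones, and of their 4 markers 1, Sdc1, reached 1 CPM, with sums of 49.7 to 52.2 CPM in 4OHT and 39.0 to 41.5 CPM in EtOH. Of the other leukocyte markers 1 of 9 reached 1 CPM in any library, and of the epithelial markers 2 of 5. Endothelial markers lay at 0.848 to 1.23 CPM in 4OHT and 0.176 to 0.270 CPM in EtOH. Skeletal muscle markers overlapped between arms, at 0.271 to 0.864 CPM in 4OHT and 0.386 to 0.690 CPM in EtOH. Whether such cells were present, and their part in the results for the ER genes, was not tested.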

How the data were processed

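RNA was measured in 6 libraries, 1 per labelled cell type and arm, grouped by their titles. The authors deposited estimated counts and TPM per transcript, for which the submitters' processing notes name kallisto 0.43.0 and the build GRCm38. Its transcript set, strand setting and filters are not given in the sources used here. Of 76055 targets, 75049 matched a gene of GENCODE M21 by transcript identifier. The 1006 others, with 0.393% to 0.410% of a library's counts, were left out. Of 51165 coding targets 94.1% had the annotated coding length, which leaves out reads in their untranslated regions. Counts were summed per gene and rounded to whole numbers. Libraries held 26243064 to 37517726 estimated counts. A count of 0 was taken to allow 3 counts (0.0797 to 0.113 CPM), and intervals cover counting error only.

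The shared difference was tested with edgeR 4.0.16 (quasi-likelihood, two-sided, TMM, filterByExpr, Benjamini-Hochberg over all 15933 genes, threshold 0.05), with labelled cell type as block, leaving 2 residual and 9.23 prior degrees of freedom. SE is the fold change divided by the root of F. The pairing comes from the cell type labels, and deviations from arm means correlated at -0.0402, 0.0763 and 0.0418 within pairs labelled fibroblast, lymphoma and sarcoma. Within pairs, CPM ratios carry 95% Clopper-Pearson intervals. The procedure was tested on simulated data in which few genes changed, all genes had a common dispersion and the labels had no effect. Such data cannot check the scaling under a broad change or the use of labels as replicates. The genes and lists were chosen with earlier results of these data known. Given with every library are the members of each role with the largest and smallest called change, the sensors and Hspa5, and the 2 largest called changes of each other list. Some others are given as well. Levels on coding transcripts were added after seeing the data. Alternatives were no pairing, DESeq2 1.42.0 (Wald test, or its size factors), no filter on low counts, limma 3.58.1 on log2(TPM + 1) or + 0.1 (mean TPM at least 1), coding transcripts only, deposited TPM within pairs and leaving out each pair. Software was R 4.3.3 and Python 3.11.15 with scipy 1.17.1, numpy 2.4.6 and pandas 2.3.3.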

Additional observations from a re-analysis of the deposited data

Results flagged for a closer look

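In 2 disulfide isomerase genes the labelled pairs moved in opposite directions, each beyond its 95% counting interval. Pdia4, an isomerase of the BiP complex, had a CPM ratio of 4OHT to EtOH of 1.07 in the pair labelled lymphoma and of 0.940 in the pair labelled sarcoma. Pdia5, a related isomerase, had a ratio of 1.20 in the pair labelled fibroblast and of 0.750 in the pair labelled sarcoma. With 1 library per label and arm, these differences were not tested.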

How the results depend on the processing

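Of the 19 called ER genes, 15 kept their call and direction in every alternative on counts, 14 without each pair in turn, and 7 (Atf6, Creld2, Dnajb11, Hspa5, Hyou1, Sdf2l1 and Syvn1) in every alternative, TPM included. The TPM of Hspa5 in those fits was mostly that of its target of 129 bases. Leaving out a pair gave 15 to 20 called ER genes, 13 to 18 higher and 1 to 4 lower: 4 were lower without the pair labelled fibroblast (Edem2, P4hb, Sec61b and Xbp1), 1 without that labelled sarcoma and 2 without that labelled lymphoma. Over all genes, 20.4% to 22.1% were then called higher and 19.9% to 24.7% lower. Without the replicate block, the number of lower ER genes was 1 (P4hb was lost), with 15 higher, and the calls of Calr, P4hb and Pdia3 were those that changed. Limma on log2(TPM + 1) and on log2(TPM + 0.1) called 7 ER genes each, 7 higher and 0 lower, by adjusted p. Of the 129 other genes, limma called 22 (12 higher, 10 lower) at + 1 and 21 (11 and 10) at + 0.1. For all genes DESeq2 called 4829 (2425 higher, 2404 lower), and limma called 2374 (1475 and 899) and 2326 (1443 and 883). The cause of these lower counts was not tested.

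Signs turned for values close to 0, among them the ratio of Calr in the pair labelled sarcoma. The log2 fold change of Dnajc10 was -0.017 with no filter on low counts and -0.003 to 0.009 leaving out pairs, that of Edem1 was -0.003 and -0.007 to 0.045, and that of Pdia4 was -0.019 and -0.039 to 0.053, with -0.002 under DESeq2 and under its size factors. Pdia5 had 0.017 without the replicate block, 0.017 and 0.014 in limma, 0.011 on coding transcripts and -0.167 to 0.180 leaving out pairs. In limma Eif2ak3 had 0.029 and 0.034 and Sec61a1 0.011 at both pseudocounts. Within pairs, deposited TPM turned several log2 ratios in the pair labelled lymphoma, where the median over the ER genes was 0.25. It gave 0.079 for P4hb, 0.005 for Ssr3, 0.118 for Hsp90b1 and 0.108 for Ssr1 there. Sec61b had 0.048, Eif2ak3 0.078 and Edem2 0.136. In the pair labelled fibroblast deposited TPM gave 0.104 for Eif2ak3 and -0.018 for Pdia4. Coding transcripts gave 0.015 for Hsp90b1 in the pair labelled sarcoma, 0.005 for Edem2 in that labelled lymphoma and -0.025 for Derl2 in that labelled fibroblast. The cause was not tested. With 1 library per label and arm, a difference between labels could not be tested, and the shared test rests on 2 residual degrees of freedom.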
